A study of Mus musculus with 13 samples.

Results

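The genes described here encode CD94 (Klrd1), proteins named NKG2 (Klrc1, Klrc2, Klrk1), other killer cell lectin-like receptors (Klrg1, Klre1, Klri2, Klrb1c) and the adaptors DAP10 (Hcst) and DAP12 (Tyrobp). They were listed by symbol, and each was represented by the annotated probe set with the highest mean over all arrays. Of 10 genes listed, 9 had a probe set, out of 18202 genes with a probe set of their own. Klri2 had none. Klrc2 was read by a probe set that is annotated to Klrc3 as well, and Klrb1c by one annotated to Klrb1b as well, so the signals of these pairs of genes cannot be separated.

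CD94 is a lectin-like protein that reaches the surface of natural killer (NK) cells as a dimer with an NKG2 chain. With NKG2A it forms an inhibitory receptor, with NKG2C or NKG2E an activating one that signals through DAP12, and both kinds read the nonclassical MHC molecule Qa-1. NKG2D, the product of Klrk1, does not pair with CD94 but binds stress-induced ligands and signals through DAP10 or, in the mouse, also DAP12, an adaptor that many receptors of myeloid cells use too.

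Mouse spleen cells of 6 populations were compared on 13 pan-genomic Affymetrix arrays, with the question of how dendritic cell (DC) subsets relate to each other and to lymphocytes. All cells came from C57BL/6 mice with no treatment given in the labels and were sorted from spleen by surface markers. There were 2 arrays of plasmacytoid DCs (pDCs, lineage-negative CD11c+ 120G8 high), 2 of CD8α conventional DCs (cDCs, CD11c high CD8α+), 2 of CD11b cDCs (CD11c high CD11b+), 2 of NK cells (NK1.1+ TCRβ-), 3 of B cells and 2 of CD8 T cells. Spleens of 10 to 15 mice were pooled for each DC array and of 6 to 10 mice for each NK cell array, whereas the B cell arrays held 3, 2 and 1 mice and the CD8 T cell arrays 1 mouse each. Follicular B cells are named for B cell replicates 2 and 3 but not for replicate 1. Ages of 6 to 8 weeks are given for CD8α cDC replicate 1 and both CD8 T cell arrays and of 6 weeks for B cell replicates 2 and 3, and no age label was found for the rest. NK1.1 is the product of Klrb1c, so the level of Klrb1c in NK cells restates the sort gate.

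Values are MAS5 signals, a linear brightness per probe set scaled by the authors to a target of 100 per array. On each array, 49.1 to 58.3% of all probe sets read below a signal of 20, which was used as a floor before taking log2. Replicates correlated at 0.937 to 0.987 on that scale. The arrays of NK cells had 3'/5' GAPDH ratios, a measure of RNA integrity and amplification, of 23.9 and 11.2 against 3.46 to 6.30 on the others. The part of these ratios in the NK cell results was not tested. DC arrays and lymphocyte arrays shared no scan period and no chip lot, so these cannot be told apart from the difference between DCs and lymphocytes. The CD8 T cell arrays shared none with B or NK cell arrays either, so the same holds for these differences. On 3 of 5 arrays with a sex label, Xist and the Y-linked Eif2s3y went against it (both CD8 T cell arrays and B cell replicate 2), and the calls that changed without these arrays are given beside the results. Xist read above Eif2s3y on all 6 DC arrays and on B cell replicate 2, and below it on every other array. Sex thus cannot be told apart from the difference of DCs from NK and CD8 T cells. Without B cell replicate 2 this holds for B cells too. Markers listed for each sorted population had their highest summed signal on the arrays of that population. Since each array holds RNA of many cells, a low signal from few positive cells and one from little RNA per cell cannot be told apart.

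Klre1, Klrd1, Klrk1, Klrc3, Klrc2, Klrc1, Klri1 and Klri2 follow each other in this order on mouse chromosome 6, and Tyrobp and Hcst are neighbors on chromosome 7 (RefSeq, GRCm38). Promoter windows of 300 bases, from 250 before to 50 after a transcript start, were found in RefSeq (GRCm38.p6) for 6 of the 10 genes. Those of Klrk1, Klrc1, Klre1 and Hcst are shown because these genes had different patterns between NK cells and DCs. Capitals mark matches on either strand to motifs of factor families that are active in lymphocytes. For RUNX factors the letters searched were TGTGGT, as read along the strand of the gene or its opposite. For T-box factors such as T-bet, the letters searched were GTGTGA, again along both of the strands. The letters for ETS factors were AGGAAG.
Klrk1, chr6:129623815-129624114, minus strand: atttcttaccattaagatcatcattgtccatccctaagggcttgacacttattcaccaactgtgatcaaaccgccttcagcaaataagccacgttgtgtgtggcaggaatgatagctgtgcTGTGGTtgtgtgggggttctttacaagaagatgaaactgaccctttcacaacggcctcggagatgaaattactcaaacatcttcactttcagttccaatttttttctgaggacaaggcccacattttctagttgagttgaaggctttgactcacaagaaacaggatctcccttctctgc
Klrc1, chr6:129678924-129679223, minus strand: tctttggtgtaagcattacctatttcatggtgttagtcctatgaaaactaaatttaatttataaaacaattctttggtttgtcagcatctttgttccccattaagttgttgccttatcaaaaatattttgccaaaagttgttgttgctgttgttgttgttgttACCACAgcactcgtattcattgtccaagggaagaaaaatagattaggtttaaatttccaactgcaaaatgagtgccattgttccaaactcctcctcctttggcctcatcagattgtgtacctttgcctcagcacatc
Klre1, chr6:129577963-129578262, plus strand: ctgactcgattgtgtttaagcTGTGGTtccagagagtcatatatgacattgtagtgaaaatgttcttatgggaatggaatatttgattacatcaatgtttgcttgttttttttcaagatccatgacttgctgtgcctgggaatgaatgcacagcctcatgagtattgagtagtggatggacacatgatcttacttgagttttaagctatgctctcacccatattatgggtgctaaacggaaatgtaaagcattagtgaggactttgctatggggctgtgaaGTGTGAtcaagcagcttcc
Hcst, chr7:30419805-30420104, minus strand: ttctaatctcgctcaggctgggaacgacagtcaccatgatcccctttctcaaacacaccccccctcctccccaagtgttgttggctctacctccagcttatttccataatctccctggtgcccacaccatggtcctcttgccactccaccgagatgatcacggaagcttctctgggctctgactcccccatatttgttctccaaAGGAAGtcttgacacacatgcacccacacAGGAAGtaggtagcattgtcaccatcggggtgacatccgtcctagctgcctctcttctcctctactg

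No 2 matches overlapped in these windows. The windows shown of Klrk1, Klrc1 and Klre1 held 1 RUNX match each, that of Klre1 also 1 T-box match, and that of Hcst 2 ETS matches. A second window of Klre1, not shown, held 0 RUNX matches, 1 T-box match and 1 ETS match. The windows of Klrc2 and Klrb1c also held the RUNX letters, so they were present in at least 1 window of all 5 Klr genes that had one, which are related in sequence. Of 32851 promoter windows of the same length, 16.8% held the RUNX letters, 14.5% the T-box letters and 35.4% the ETS letters. These matches are a description of the letters and show no binding.

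NK cells gave the highest mean signal of all 6 populations for each of the 9 genes. With 1 limma model over all arrays and adjustment over 9715 features, 8 of the 9 genes were higher in NK cells than in pDCs, where 23.7% of all features were. The same 8 were higher than in CD11b cDCs and CD8α cDCs, where 23.3% and 26.4% of features were, and the gene that was not called was Tyrobp in each case. Against B cells all 9 were higher (21.6% of features), and against CD8 T cells 7 were (21.7%), without Klrd1 and Hcst. Leaving out Klrb1c because of the sort gate, 5 of 8 genes (Klrc1, the Klrc2/Klrc3 probe set, Klrk1, Klrg1 and Klre1) were higher in NK cells than in each of the 5 other populations, against 5.8% of all features. A gene was tested only if it reached a signal of 50 on every array of some population. The Klrc2/Klrc3, Klre1 and Klrb1b/Klrb1c probe sets did so in NK cells alone, and Klrc1 and Klrg1 in NK and CD8 T cells alone. Their higher level in NK cells than in the populations below that limit thus followed from the filter, and these counts describe the genes and support nothing further. Of the 4 genes that also reached the limit in at least 1 DC population (Klrd1, Klrk1, Hcst and Tyrobp), 3 were higher in NK cells than in every DC population. With both CD8 T cell arrays and B cell replicate 2 left out, 7 of the 8 were higher than in each of the 4 remaining populations, against 7.96% of all features in that fit, and all 9 were still higher than in B cells.

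**Figure D1:**
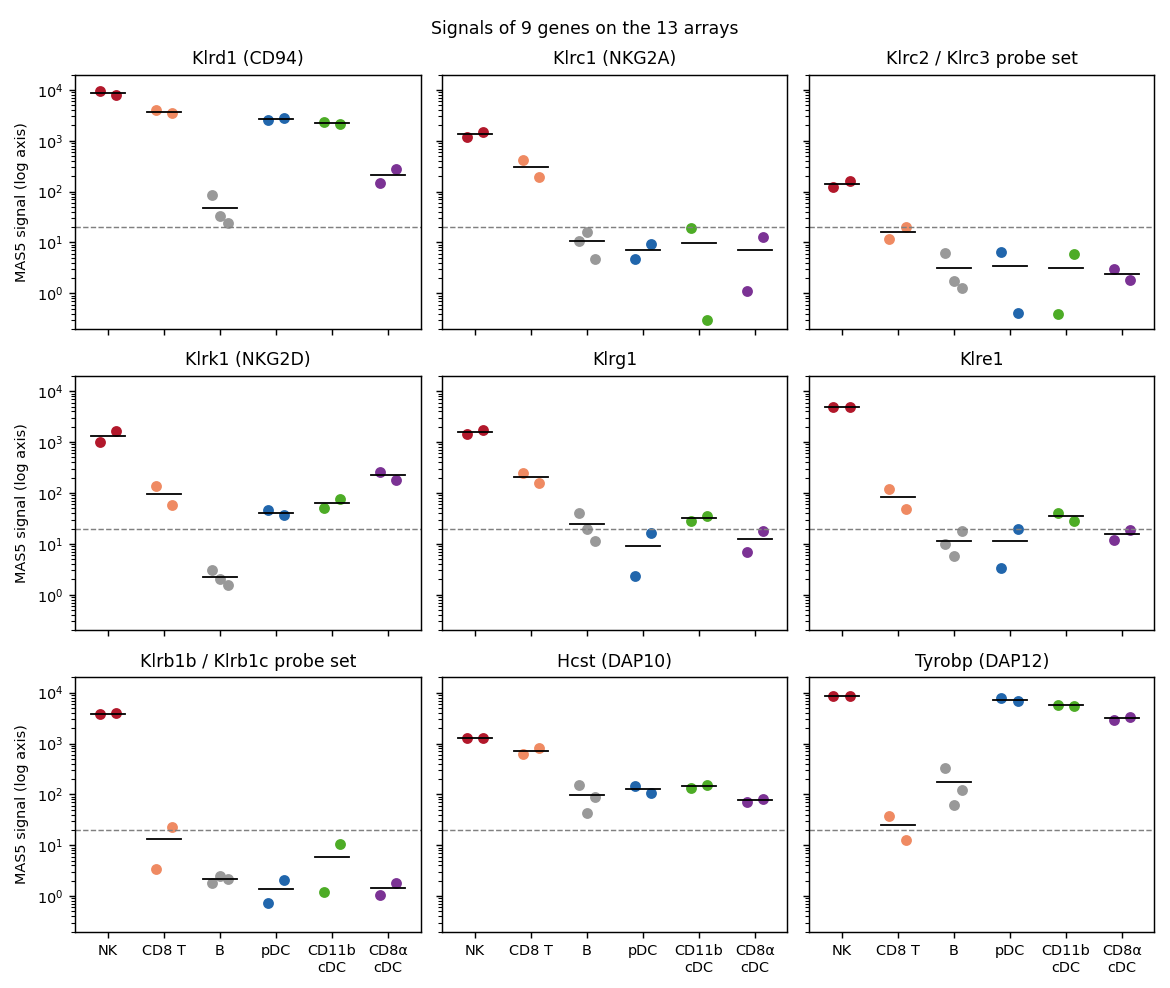
MAS5 signal (log axis) of each gene in the 6 populations. Each point is 1 array, horizontal lines are population means, and the dashed line is the floor of 20. Klrd1 is above the floor on all 13 arrays, Klrc1 only on those of NK and CD8 T cells, and Tyrobp lies between 2965 and 7833 on the DC arrays but at most at 335 in B and CD8 T cells.

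Klrd1, which encodes CD94, had signals of 9390 and 7907 in NK cells, and both CD8 T cell arrays, at 3966 and 3452, were lower. The pDC arrays read 2561 and 2746 and the CD11b cDC arrays 2339 and 2135. In CD8α cDCs the signals were 149 and 282, and in B cells they were 84.2, 33.5 and 23.9. Both pDC and both CD11b cDC arrays thus lay above both CD8α cDC arrays, which in turn lay above all 3 B cell arrays. On the log2 scale Klrd1 was higher in pDCs than in CD8α cDCs by 3.69 ± 0.48 (SE, limma adjusted p = 0.000139) and in CD11b cDCs by 3.45 ± 0.48 (adjusted p = 0.000429). Of all features, 4.95% were higher in both of these populations than in CD8α cDCs. The difference between pDCs and CD11b cDCs was 0.25, with a 95% interval from -0.82 to 1.32.

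Relative to its own mean in NK cells, the Klrd1 signal of pDCs amounted to 30.7%, that of CD11b cDCs to 25.9%, that of CD8α cDCs to 2.49% and that of CD8 T cells to 42.9%. NK cells were higher than pDCs by 1.70 on the log2 scale (adjusted p = 0.0152, limma) and higher than CD11b cDCs by 1.95 (adjusted p = 0.00756). These calls were lost when 1 array was left out, for pDCs without any 1 of the pDC or NK cell arrays (adjusted p from 0.0566 to 0.0938) and for CD11b cDCs without CD11b cDC replicate 2 (0.0527) or NK cell replicate 1 (0.0618). The difference between NK and CD8 T cells, 1.22 with a 95% interval from 0.15 to 2.29, did not pass the threshold (adjusted p = 0.0699), and that between CD8 T cells and pDCs was 0.48 (adjusted p = 0.462). Without both CD8 T cell arrays and B cell replicate 2, pDCs remained above CD8α cDCs by 3.69 (adjusted p = 0.00065) and CD8α cDCs above B cells by 2.19 (adjusted p = 0.00899).

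The inhibitory partner of CD94, NKG2A, was measured by Klrc1. It read 1202 and 1469 in NK cells, with 418 and 191 in CD8 T cells, and no DC or B cell array exceeded 19.2. All DC arrays were therefore below the floor for Klrc1, on the same arrays on which Klrd1 was above it. NK cells exceeded each DC population by at least 6.05 on the log2 scale (adjusted p = 3.63e-08 against pDCs, limma) and CD8 T cells by 2.23 (adjusted p = 0.00019). The other Klrc1 probe set gave 17.0 and 41.4 in NK cells and at most 5.60 elsewhere.

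The activating partners, NKG2C and NKG2E, were read together by the Klrc2/Klrc3 probe set. It read 122 and 159 on the NK cell arrays, 11.6 and 20.3 on those of CD8 T cells and at most 6.39 on DC and B cell arrays. NK cells exceeded CD8 T cells by 2.79 (adjusted p = 4.26e-07, limma) and the DC populations by at least 2.80. A probe set for Klrc2 alone gave 2.98 and 32.2 in NK cells and at most 15.8 elsewhere. For Klrc1 and the Klrc2/Klrc3 probe set, no contrast among DC populations or between a DC population and B cells was called, since all those arrays were at the floor.

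**Figure D2:**
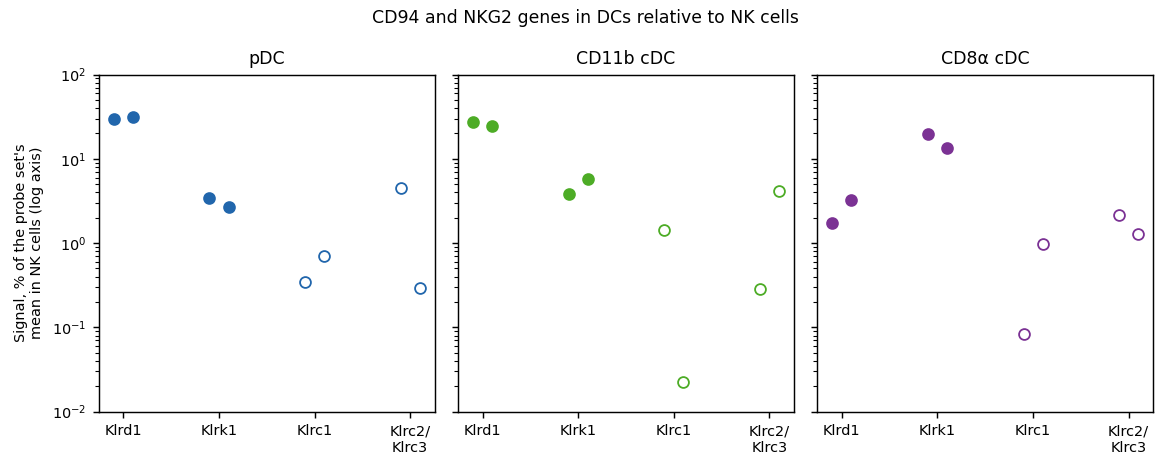
Signal of Klrd1, Klrk1, Klrc1 and the Klrc2/Klrc3 probe set on each DC array, as a percent of the mean of the same probe set in NK cells (log axis). Open points are signals below the floor of 20. Klrd1 lies near 30.7% in pDCs and 25.9% in CD11b cDCs and at 2.49% in CD8α cDCs, while Klrk1 is highest in CD8α cDCs at 16.6%, and both Klrc probe sets are below the floor on all DC arrays.

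Klrk1, which encodes NKG2D, had the opposite order among the DC populations. Its signals were 261 and 181 in CD8α cDCs, 50.5 and 76.1 in CD11b cDCs, and 46.2 and 36.1 in pDCs. NK cells gave 1009 and 1654, CD8 T cells 136 and 58.3, and no B cell array exceeded 3.13. CD8α cDCs lay above both other DC populations without overlap and above the CD8 T cell arrays, while CD11b cDCs overlapped with CD8 T cells.

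On the log2 scale, Klrk1 was lower in pDCs than in CD8α cDCs, with a difference of -2.41 ± 0.39 (SE, adjusted p = 0.000591, limma). The difference between CD11b and CD8α cDCs was -1.81 ± 0.39 (adjusted p = 0.00708), and this call was lost without CD8α cDC replicate 1 (adjusted p = 0.0729) or without CD11b cDC replicate 1 (0.0821). Of all features, 5.88% were higher in CD8α cDCs than in both other DC populations. CD8α cDCs reached 16.6% of the NK cell mean of Klrk1, CD8 T cells 7.29%, CD11b cDCs 4.75% and pDCs 3.09%. Klrk1 was higher in NK cells than in CD8α cDCs by 2.57 (adjusted p = 0.000263) and higher in CD8α cDCs than in B cells by at least 3.44 (adjusted p = 1.64e-05). Its excess in CD8α cDCs over CD8 T cells was 1.29 (adjusted p = 0.016). That call was lost without CD8α cDC replicate 1 (1.02) or CD8 T cell replicate 2 (0.68). No filter on low signals (adjusted p = 0.069) or a model term for the sample name set (0.123) also removed it. Klrk1 in pDCs exceeded B cells by at least 1.03 (adjusted p = 0.0366). This call was lost without any 1 of the pDC or B cell arrays, with a floor of 50 and with no filter on low signals. The same happened with the sample name set term (adjusted p = 0.127) and with replicate number as a block (0.0882).

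Counted over the 9 genes, pDCs and CD8α cDCs differed in Klrd1 and Klrk1 alone, against 36.5% of all features, and so did CD11b and CD8α cDCs, against 19.4%. Between pDCs and CD11b cDCs limma called 0 of the 9 genes, against 29.6% of all features. At an unadjusted p below 0.05, 1 of them, Klre1, would have passed (-0.77, higher in CD11b cDCs). Klrd1 was lower and Klrk1 higher in CD8α cDCs in both of the former contrasts, which share the CD8α cDC arrays.

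**Figure D3:**
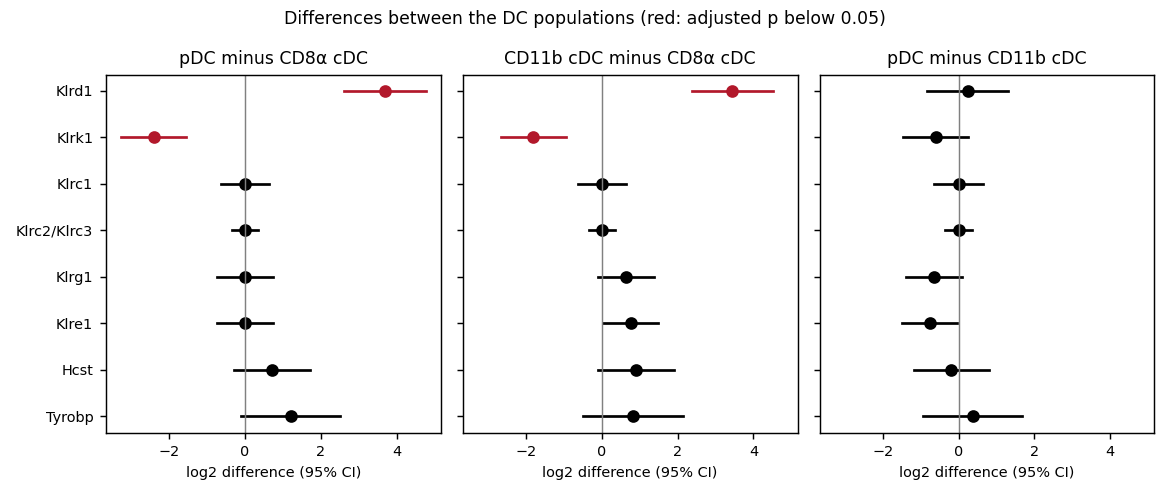
Differences on the log2 scale between the DC populations for 8 genes, with 95% intervals from the limma model of 13 arrays. Red marks an adjusted p below 0.05. Klrd1 lies to the right of 0 at 3.69 and 3.45 and Klrk1 to the left at -2.41 and -1.81 in the contrasts with CD8α cDCs, and no gene is marked between pDCs and CD11b cDCs.

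A list of NK cell markers was read on the same DC arrays. Of its 10 genes, 7 were below 20 on both pDC arrays, 9 on both CD8α cDC arrays and 6 on both CD11b cDC arrays. Their summed signal was 87.9 to 180 in pDCs, 376 to 461 in CD8α cDCs and 3117 to 3156 in CD11b cDCs, against 55471 to 57177 in NK cells. In pDCs the marker closest to its NK cell level, Cd160, stood at 0.609% of it, whereas Klrd1 stood at 30.7%. In CD8α cDCs the highest was the chemokine gene Ccl5 at 2.82%, with Klrk1 at 16.6% and Klrd1 at 2.49%.

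In CD11b cDCs, Ccl5 reached 22.1% of its NK cell level and Tbx21, which encodes the transcription factor T-bet, reached 8.60%, while the other 8 markers, among them the activating receptor gene Ncr1 and the cytotoxic genes Gzma, Gzmb and Prf1, stayed at or below 0.649%. Mean signals of Ncr1 were 1344 in NK cells and at most 8.72 in a DC population. Klrd1 in CD11b cDCs, at 25.9%, was thus above Ccl5 and all other markers relative to NK cells.

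**Figure D4:**
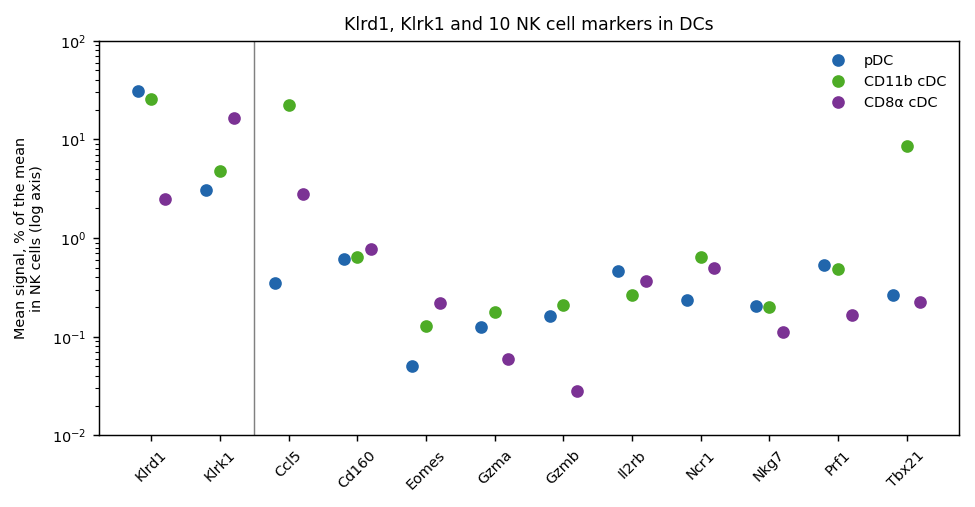
Mean signal of Klrd1, Klrk1 and 10 NK cell markers in the 3 DC populations, as a percent of the mean of the same probe set in NK cells (log axis). Left of the vertical line, Klrd1 stands at 30.7% in pDCs and 25.9% in CD11b cDCs and Klrk1 at 16.6% in CD8α cDCs. Right of it, all markers but Ccl5 and Tbx21 lie under 1%.

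Klrg1, an inhibitory receptor for cadherins that marks mature NK cells and effector T cells, read 1425 and 1755 in NK cells, with 245 and 160 in CD8 T cells. In CD11b cDCs its signals were 28.5 and 34.6, in B cells 40.9, 19.7 and 11.4, and in pDCs and CD8α cDCs at most 17.6. NK cells were higher than CD8 T cells by 3.00 on the log2 scale (adjusted p = 6.88e-05, limma), and CD8 T cells were higher than CD11b cDCs by 2.66 (adjusted p = 7.73e-05). CD11b cDCs and B cells overlapped and differed by 0.31 (adjusted p = 0.454).

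Klre1, whose product is a lectin-like receptor of NK cells that pairs with KLRI1 or KLRI2, gave 4974 and 4840 in NK cells. CD8 T cells gave 118 and 49.2, CD11b cDCs 41.2 and 28.1, and no other array exceeded 19.2. The difference between NK and CD8 T cells was 6.01 (adjusted p = 3.63e-07, limma). CD11b cDCs exceeded CD8α cDCs by 0.77, which was not called (adjusted p = 0.142) but was without both CD8 T cell arrays and B cell replicate 2 (0.031). The Klrb1b/Klrb1c probe set gave 3736 and 3897 in NK cells, where it restates the gate, and at most 10.6 on a DC array and 22.7 on any array outside NK cells.

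Hcst, which encodes DAP10, read 1277 and 1294 in NK cells, with 630 and 800 in CD8 T cells. The pDC arrays read 145 and 108, the CD11b cDC arrays 133 and 153, the CD8α cDC arrays 71.0 and 82.1, and the B cell arrays 153, 42.4 and 90.5. NK and CD8 T cells thus stood apart from DCs and B cells. The B cell arrays spanned the range of the pDC and CD8α cDC arrays and overlapped with those of CD11b cDCs. Of the 15 pairwise contrasts 8 were called for Hcst, each between NK or CD8 T cells and one of the other 4 populations.

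NK cells exceeded pDCs in Hcst by 3.36, CD11b cDCs by 3.17 and CD8α cDCs by 4.07 on the log2 scale (adjusted p from 2.65e-05 to 0.000196, limma). The difference between NK and CD8 T cells was 0.86 (adjusted p = 0.159), and that between CD11b and CD8α cDCs was 0.90 (adjusted p = 0.205, or 0.0487 without the arrays against their sex label). CD8α cDCs, the DC population with the highest Klrk1, had an Hcst mean of 76.6 ± 7.83 (SD, n = 2), the lowest of the 6 populations, although the difference from B cells, -0.13, was not called (adjusted p = 0.821).

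Tyrobp, which encodes DAP12, gave 8649 and 8727 in NK cells, 7833 and 6758 in pDCs and 5822 and 5417 in CD11b cDCs. Its signals were 2965 and 3366 in CD8α cDCs. B cells gave 335, 61.1 and 124, and CD8 T cells 37.2 and 12.8. All arrays of DCs and NK cells thus lay above all arrays of B and CD8 T cells. Relative to NK cells, the mean signal amounted to 84.0% for pDCs, 64.7% for CD11b cDCs and 36.4% for CD8α cDCs, but to 2.00% for B cells and 0.288% for CD8 T cells.

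For Tyrobp, 9 of the 15 contrasts were called, and none of them was among NK cells and the DC populations, where at an unadjusted p below 0.05 only NK cells against CD8α cDCs passed. The closest to the threshold was NK cells against CD8α cDCs, 1.46 (adjusted p = 0.062, limma), and pDCs exceeded CD8α cDCs by 1.20 (adjusted p = 0.141). Without the arrays against their sex label, both differences kept their size and were called (adjusted p = 0.0131 and 0.0397). CD8α cDCs were higher than B cells by 4.54 (adjusted p = 5.14e-05). B cells were higher than CD8 T cells, with a difference of -2.32 in CD8 T minus B cells (adjusted p = 0.00701). That call was lost with a floor of 50 (-1.45, adjusted p = 0.0644) and without CD8 T cell replicate 2 (-1.87). A list of 7 genes of red pulp macrophages, monocytes and neutrophils summed to between 109 and 857 on the B cell arrays and between 98.0 and 218 on the CD8 T cell arrays, and its part in the Tyrobp signals was not tested. NK cells thus had high signals of both adaptor genes, DCs of Tyrobp and CD8 T cells of Hcst.

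CD8 T cells differed from B cells in 7 of the 9 genes, 6 higher (16.9% of features were) and 1, Tyrobp, lower (18% were). The 6 were Klrd1, Klrc1, Klrk1, Klrg1, Klre1 and Hcst. Klrd1 was higher in CD8 T cells by 6.51 (adjusted p = 9.85e-07, limma) and Klrc1 by at least 3.82 (adjusted p = 1.08e-06). The Klrc2/Klrc3 and Klrb1b/Klrb1c probe sets were at or near the floor in both. Both CD8 T cell arrays go against their sex label, so none of these values can be given without them. Scan period and chip lot also cannot be told apart from these differences between CD8 T and B cells.

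Each DC population was higher than B cells in 3 of the 9 genes, Klrd1, Klrk1 and Tyrobp. Of all features, 21.5% were higher in pDCs than in B cells, 22.6% in CD11b cDCs and 25.7% in CD8α cDCs. For Klrd1 the excess over B cells was 6.03 for pDCs, 5.78 for CD11b cDCs and 2.33 for CD8α cDCs (adjusted p = 1.62e-06, 1.94e-06 and 0.00129, limma). Without the arrays against their sex label it was 5.89, 5.64 and 2.19, and all 9 calls of these genes against B cells were kept, with Tyrobp higher by 3.96 in CD8α cDCs and Klrk1 by at least 1.03 in pDCs (adjusted p = 0.0317). Klrk1 in CD11b cDCs exceeded B cells by at least 1.63 (adjusted p = 0.00359), a call that was lost with a floor of 50 (0.31, adjusted p = 0.547) or without CD11b cDC replicate 2 (0.0554).

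Among genes that transmit or set the threshold of NK receptor signals, 20 of 22 listed were tested. NK cells were higher than pDCs in 8 and lower in 5, higher than CD11b cDCs in 7 and lower in 5, and higher than CD8α cDCs in 9 and lower in 6 (limma). Over all features 23.7, 23.3 and 26.4% were higher in NK cells than in pDCs, CD11b cDCs and CD8α cDCs, and 20.8, 21 and 24.1% were lower. The median difference over these 20 genes was 0.56, -0.09 and 0.33, beside 0.06, 0.05 and 0.04 over all features. Zap70 (a kinase), Cd247 (the zeta chain), Sh2d1a (the adaptor SAP), Lat (a scaffold) and Pik3r1 (a subunit of PI3K) were higher in NK cells than in every DC population, by at least 4.71 for Zap70, 5.05 for Cd247 and 4.57 for Sh2d1a, by 3.32 to at least 3.98 for Lat and by 1.80 to 2.60 for Pik3r1. Of these, Zap70, Cd247, Sh2d1a and Lat reached the filter in NK and CD8 T cells alone, so that their direction against DCs followed from it. Fyn, which encodes a kinase, was higher than in CD11b cDCs by 3.41 and than in CD8α cDCs by 3.22, and the adaptor gene Lcp2 was higher than in pDCs by 2.39. Plcg1 (a phospholipase), Vav2 (an exchange factor) and Ptpn6 (an inhibitory phosphatase) were lower in NK cells than in every DC population, with differences from -2.40 to -2.66 for Plcg1, from -1.37 to -3.02 for Vav2 and from -1.15 to -2.75 for Ptpn6.

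Fcer1g encodes another ITAM adaptor that pairs with activating receptors, and Syk a kinase that DAP12 recruits. Fcer1g had mean signals of 2379 in pDCs, 3047 in CD11b cDCs and 148 in CD8α cDCs, against 3811 in NK cells. It was higher than in CD8α cDCs by 4.00 in pDCs (adjusted p = 3.96e-08, limma) and by 4.36 in CD11b cDCs (adjusted p = 4.91e-08). Against CD8α cDCs, NK cells were higher in Fcer1g by 4.68 and in Syk by 2.16. For Syk the means were 1544, 1291 and 454 in the same order, and the differences 1.77 (adjusted p = 0.00222) and 1.51 (adjusted p = 0.0104). These contrasts among DCs were chosen after the values were seen.

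Of 6 other lectin-like receptor genes, 3 were tested. Klrb1a and Klrb1b passed the filter through NK cells alone, which fixed their direction. Klrb1f, which passed in CD11b cDCs too, was higher in NK cells than in every DC population. Klrb1f had a mean of 1907 in NK cells, 180 ± 52.2 (SD, n = 2) in CD11b cDCs, 41.3 in pDCs and 13.2 in CD8α cDCs. Its difference between CD11b and CD8α cDCs was 3.14 (adjusted p = 3.91e-05, limma), also chosen after the values were seen.

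Of 9 receptors of myeloid cells that pair with DAP12, 5 were tested, each of which passed the filter through DCs alone. NK cells were lower in 1 of them against pDCs, 4 against CD11b cDCs and 2 against CD8α cDCs, where 20.8, 21 and 24.1% of all features were. The filter fixed that direction except for Sirpb1a against CD8α cDCs (-0.43, adjusted p = 0.0442, limma). Sirpb1a passed through CD11b cDCs alone and did not reach the limit in NK cells or CD8α cDCs. Siglech had a mean of 3326 in pDCs, Treml4 of 3079 in CD8α cDCs and 849 in CD11b cDCs, and Sirpb1a of 1311, Pilrb1 of 304 and Cd300lb of 237 in CD11b cDCs. In NK cells the mean of each of these was at most 20.4.

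Of 16 ligand genes, 8 had a probe set annotated to them alone, and 3 of these passed the filter on low signals. H2-T23, Raet1a to Raet1e, H60a and H60b had no such probe set and were not tested. Cdh1, whose product E-cadherin is a ligand of KLRG1, had a mean of 735 in pDCs, through which alone it passed, and at most 13.5 in any other population, and was lower in NK cells than in pDCs, with a difference of -5.19 (adjusted p = 1.42e-09, limma). Clec2i encodes a ligand of an NKR-P1 receptor and had means of 248 in NK cells and 8.19 in CD8α cDCs, a difference of 3.63 (adjusted p = 1.71e-05).

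The genes whose log2 signals over the 13 arrays were most like those of Klrd1 were Cd7 (Pearson r = 0.960), Tbc1d2b (0.945), Tmem164 (0.941) and Zfp36l2 (0.930). These correlations describe 6 populations with shared replicates and were not tested. Cd7, which encodes a surface protein of T and NK cells, had means of 1969 in NK cells, 1874 in pDCs, 1420 in CD11b cDCs, 670 in CD8 T cells, 96.0 in CD8α cDCs and 7.55 in B cells. Cd7 was picked for its likeness to Klrd1 on these same arrays. Its low level in CD8α cDCs and high levels in both other DC populations are thus no separate support.

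For Klrk1 the most alike were Osbpl3 (0.976), Efr3a (0.965), Nup210 (0.960) and Serpinb9 (0.957). Serpinb9, which encodes an inhibitor of granzyme B, had means of 2437 in NK cells and 773 in CD8α cDCs, and 128 and 57.2 in CD11b cDCs and pDCs. For Klrg1 they were Baiap3 (0.991), Cd160, Fhl2 (both 0.990) and Gzmb (0.989). Hcst was most like Rassf5 (0.977), Cst7 (0.960), Cd96 (0.955) and Ctla2a (0.953), and Tyrobp most like Naip5 (0.988), Coro2a (0.979), Hcfc1r1 (0.970) and Gab2 (0.969).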

How the data were processed

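The authors hybridized amplified RNA to Affymetrix arrays and deposited MAS5 signal intensity values, linear and scaled to a target of 100. The values were used as deposited. The annotation named 1 gene for 34970 of 45101 probe sets, several genes for 920 and no gene for 9211, and the probe set with the highest mean stood for a gene. Features had to reach a signal of 50 on every array of some population, which left 9715 of them. Signals were floored at 20, so differences from populations at the floor are lower bounds, and log2 transformed. All 13 arrays entered 1 limma 3.58.1 model in R 4.3.3 (6 means, 7 residual degrees of freedom), which gave all 15 pairwise contrasts, two-sided, with Benjamini-Hochberg adjustment per contrast and a threshold of 0.05. The limma script was tested on simulated data. With 2 or 3 arrays a population, precision is limited by their number.

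The genes and lists were chosen with earlier results of these data known. Named genes were all listed receptors and adaptors, list genes called with a log2 difference of at least 2 between NK cells and a DC population, and the 4 genes most correlated with each of 5 genes. Klrb1f, Fcer1g, Syk, Cd7, Tbx21 and Ccl5 were named among DCs after their values were seen. DC and NK cell duplicates came from 2 independent sorting experiments. Arrays of these populations may thus share an experiment, and the methods do not say which. The B cell arrays held different pools of mice. B and CD8 T cells were sorted in further experiments. Separate sorts are not stated for the CD8 T cell arrays, so p-values of their contrasts may measure technical spread. Alternatives covered the floor, filter, normalization, variance model, probe set, replicate number, scan day, sample name set and each array left out.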

Additional observations from a re-analysis of the deposited data

How the results depend on the processing

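Of 95 differences followed through the alternatives, 2328 repeats kept direction and side of the threshold, 45 lost the call, 17 gained it and 9 changed sign, none of the last past the threshold. The count of genes higher in NK cells than in each other population fell from 5 to 3 with second probe sets. Only Klrc1 and Klrc2 had another probe set, and both of these missed the filter and were not tested. The genes differing between CD8 T and B cells fell from 7 to 4 with a floor of 50. The Hcst contrasts called fell from 8 to 5 without the arrays against their sex label (chosen after seeing the data). This removes the 4 called contrasts with CD8 T cells and adds that of CD11b against CD8α cDCs (0.90, adjusted p = 0.0487, limma). Quantile normalization gave 0.15 for Hcst in CD8α cDCs minus B cells and -0.19 for Tyrobp in NK cells minus pDCs. A term for the sample name set gave -0.45 and -0.35 for Hcst and Klrd1 in NK minus CD8 T cells, -0.29 for Hcst in pDCs minus B cells and -0.38 for Klrg1 in CD11b cDCs minus B cells. With each array left out in turn, Hcst ranged from -0.40 to 0.023 in pDCs minus CD11b cDCs and from -0.62 to 0.30 in CD8α cDCs minus B cells, and Klrk1 from -1.13 to 0.087 in CD11b cDCs minus CD8 T cells. The causes were not tested. Invariant-rank scaling moved the median of pDCs minus CD8α cDCs over all features by 0.18 and the features higher in NK cells than in all others from 563 to 387.

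Same-numbered arrays deviated together at r from -0.20 to 0.18, and not all of these exceeded 0.1, so a shared number was not treated as pairing. With the replicate number as a block, Klrd1 in NK minus CD8 T cells stayed at 1.22 and was called (adjusted p = 0.0483, limma), and the Klrk1 calls of pDCs against B cells (0.0882) and CD8 T cells (0.0584) were lost. Klrd1 in NK minus CD8 T cells was also called with a floor of 50 (0.0143), with no floor (0.0231), with scan day as a random block (0.0493) and without B cell replicate 1 or 3. The call of Klrd1 in NK cells against pDCs was lost with no filter (0.0728). Signals near the floor limit what can be said of Klrc1, Klrc2, Klrg1 and Klre1 in DCs.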
